A study of Homo sapiens with 6 samples.

Results

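CA9 and NDRG1 were examined in RKO cells, an established human colorectal carcinoma line, some of which had been depleted of SQLE, the squalene epoxidase of cholesterol synthesis. Both genes are induced in many cells when oxygen falls. They were picked by name as hypoxia-inducible genes, with their difference between the groups already known, and make up 2 of the 500 genes in the table analysed here. Their difference between the groups is therefore given as a description, without a test. RNA was sequenced from 6 libraries, 3 of cells expressing non-targeting shRNA (shNT) and 3 of cells expressing shRNA against SQLE (shSQLE). The series' design text speaks of duplicates, so that how the 3 labelled libraries of a group relate to each other is not settled. The sample labels call the shNT cells wild type and the shSQLE cells SQLE knockdown. They name no hypoxia and no drug for either group, whereas the study's text places this comparison after 5-fluorouracil treatment, so whether the cells had received the drug is not settled here. The methods describe culture in DMEM with serum, in an incubator supplied with air and CO2. They list more than one hairpin against SQLE and do not say which of them the sequenced cells carried, and nothing states that the libraries of a group came from separate cultures.

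Hypoxia-inducible factors (HIFs) are transcription factors whose alpha subunit is hydroxylated by oxygen-dependent prolyl hydroxylases and then degraded through the VHL ubiquitin ligase. When oxygen is scarce, or when these enzymes are blocked, the alpha subunit persists, pairs with ARNT and binds the core sequence ACGTG or GCGTG near its target genes. CA9 encodes carbonic anhydrase IX, a zinc enzyme of the cell surface that hydrates CO2 to bicarbonate and a proton and thereby affects the pH around tumour cells. NDRG1 encodes a cytosolic protein that is induced by hypoxia, iron chelation and other stresses and has been linked to differentiation and to vesicle traffic.

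CA9 (Entrez Gene 768) lies on the plus strand of chromosome 9 of GRCh38, from 35673856 to 35681159 in GENCODE release 29, and its first-numbered transcript has 11 exons and 1618 nt. NDRG1 (Entrez Gene 10397) lies on the minus strand of chromosome 8, from 133237171 to 133302022, and its first-numbered transcript has 16 exons and 3014 nt. Setting aside the gene that overlaps CA9, 0% of the 50-mers of either gene's longest transcript were found on either strand of another gene's transcripts. The exons of CA9 share 643 nt with exons of ARHGEF39, which is encoded on the opposite strand and is not among the 500 genes. The sources do not say if reads were counted by strand, so reads from that stretch cannot be assigned to either gene.

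The CA9 promoter is shown because it holds the core sequence to which HIFs bind. The NDRG1 promoter was not analysed here, so it was not searched for that sequence. The window runs from 250 bases before to 50 bases after the RefSeq start of the gene, chr9:35673678-35673977, plus strand, GRCh38.p14, as given by RefSeq. Capitals mark the only match to ACGTG or GCGTG on either strand.

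CA9 promoter: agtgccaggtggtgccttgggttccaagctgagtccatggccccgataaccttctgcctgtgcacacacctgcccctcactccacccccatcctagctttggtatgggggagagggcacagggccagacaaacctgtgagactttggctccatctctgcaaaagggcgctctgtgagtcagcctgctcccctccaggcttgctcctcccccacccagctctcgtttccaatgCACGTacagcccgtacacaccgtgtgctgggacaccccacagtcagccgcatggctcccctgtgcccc

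The match reads ACGTG on the minus strand and occupies bases -18 to -14 from the RefSeq start at 35673928. The GENCODE start of the gene, at 35673856, lies 72 bases further upstream, so in that annotation the match falls inside the transcribed region. Either core sequence was present on at least 1 strand in 17012 of 35116 promoter windows of this length (48.4%). It was present in 55 of the 69 windows matched to a hand-written list of 85 hypoxia-inducible genes (79.7%), in 43 of 79 windows of genes with a higher mean in shSQLE (54.4%) and in 141 of 268 windows of genes with a lower mean (52.6%). Both sequences contain a CpG, and base composition was not matched between these sets. A match is a stretch of letters and not a measured binding site.

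The values are pseudo-counts, that is, reads moved by the authors to a common library size. Every one of the 3000 values was returned within 0.01 by whole reads, a relative library size and a common dispersion of 0.00485, so the reads behind each value are known. The relative library sizes lay between 0.797 and 1.13, and the reads over the 500 genes summed to between 117410 and 233404 per library. The full depth of the libraries cannot be read from these sums, because the table holds only selected genes. SQLE, the target of the hairpin, had 6976, 6926 and 6958 pseudo-counts in shNT and 303, 296 and 307 in shSQLE. All genes in the table had been selected by the authors as differing between these libraries, so shares of changed genes are high throughout.

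CA9 was low in shNT cells and abundant in shSQLE cells. The shNT libraries gave 14.05, 35.7 and 54.9 pseudo-counts, against 715, 426 and 394 with shSQLE. The groups did not overlap, as for 90.3% of the 473 genes tested, and the lowest shSQLE library was 7.19-fold above the highest shNT library. The means were 34.9 ± 20.4 (SD, n = 3) and 512 ± 177 (SD, n = 3), a 14.7-fold difference. On the scale of log2(pseudo-count + 1), on which the comparisons were fitted, the difference was 3.98 (standard error 0.444). In bulk RNA a larger share of cells with CA9 transcripts and more transcripts per cell cannot be told apart.

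NDRG1 was already abundant in shNT cells and higher still in shSQLE cells. The shNT libraries gave 2428, 3015 and 2573 pseudo-counts, against 11788, 7350 and 7855 with shSQLE. Again the groups did not overlap, and the lowest shSQLE library was 2.44-fold above the highest shNT library. The means were 2672 ± 306 (SD, n = 3) and 8998 ± 2430 (SD, n = 3), a 3.37-fold difference. The log2 fold change was 1.72 (standard error 0.166).

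**Figure D1:**
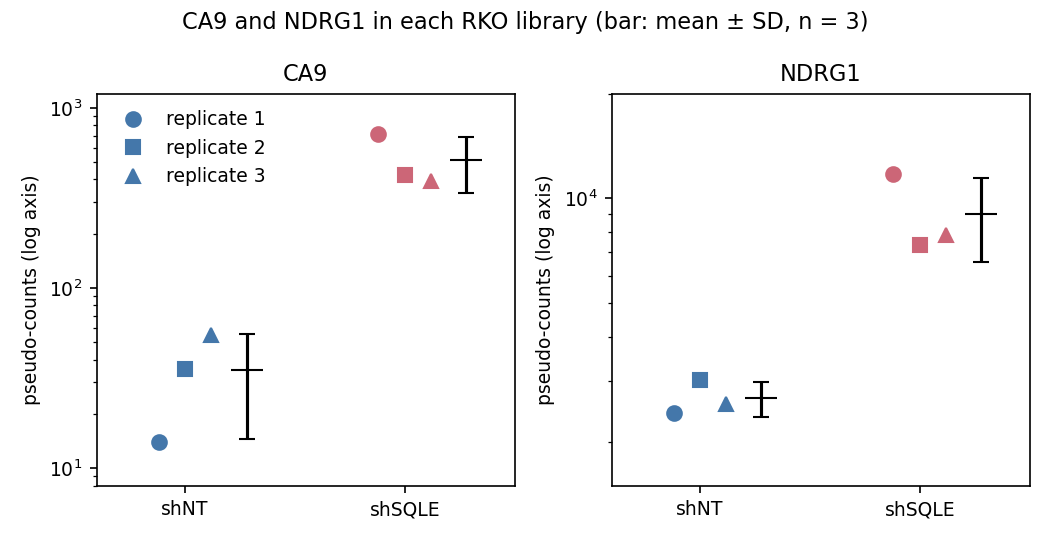
Pseudo-counts (log axis) of CA9 and NDRG1 in the 3 shNT (blue) and 3 shSQLE (red) libraries; symbols give the replicate number and the bars the mean ± SD of each group. The shSQLE libraries lie above the shNT libraries for both genes, and replicate 1 is the highest shSQLE library for both.

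The genes differed in the size of the change and in level. CA9 had the larger ratio between the groups, and NDRG1 the larger difference in pseudo-counts, at 6326 against 477. Per kilobase of reference transcript, CA9 had a mean of 21.6 pseudo-counts in shNT and 316 in shSQLE, and NDRG1 had 887 and 2985. On this per-length scale, NDRG1 was 41.1-fold above CA9 in shNT and 9.44-fold above it in shSQLE. Thus the order of the genes was the same in both groups, and the ratio between them was smaller in shSQLE.

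Among the 473 genes with at least 1 pseudo-count in at least 3 libraries, the log2 fold change of CA9 was the second highest, below that of GRAMD1B, and that of NDRG1 was number 40 from the top. The place of CA9 depended on the setting. COL5A3, a gene with few reads in shNT, was among the genes above CA9 with a pseudocount of 0.1 (4.87 against 4.03), in limma-voom on the recovered reads (4.08 against 4.01) and without shNT replicate 1 (3.52 against 3.45). A gene was called when limma gave an adjusted p-value (Benjamini-Hochberg) under 0.05 and a change of 1 or more in either direction on the log2 scale. By this rule, 20.7% of the tested genes were called higher and 71.9% lower in shSQLE, and the libraries of the groups did not overlap for 90.3%. Among the 118 genes with a higher mean in shSQLE, NDRG1 was number 3 by mean shSQLE pseudo-counts and CA9 number 12. These ranks are of counts and not corrected for transcript length.

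**Figure D2:**
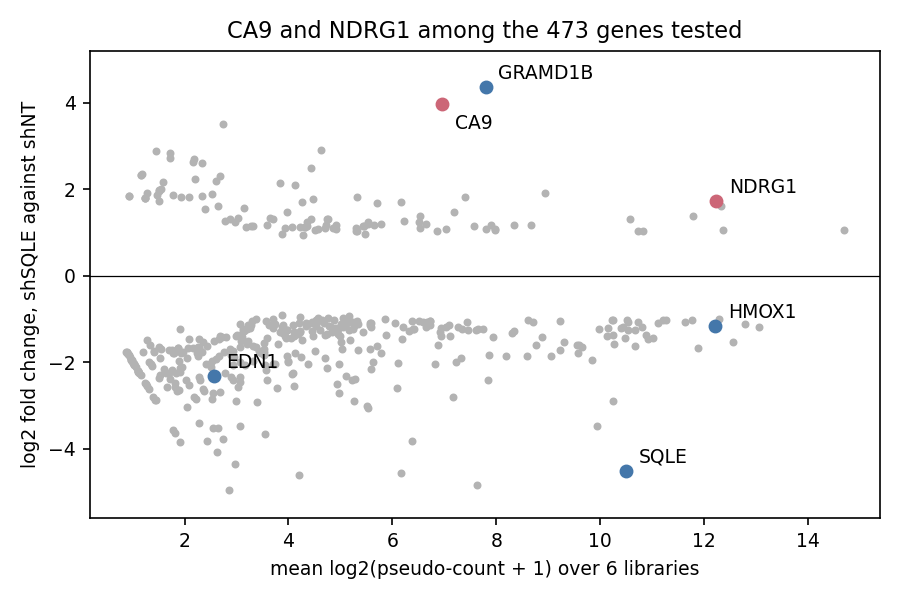
Each point is 1 of the 473 genes tested, with its mean log2(pseudo-count + 1) over 6 libraries on the horizontal axis and its log2 fold change in shSQLE against shNT on the vertical axis. CA9 (3.98) stands next to GRAMD1B at the top, NDRG1 (1.72) is among the most abundant higher genes, and the empty band around 0 shows that the table holds selected genes only.

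The spread between libraries of a group was wide for CA9. In shNT the coefficient of variation was 58.6% for CA9 and 11.4% for NDRG1, and in shSQLE it was 34.5% and 27.0%. CA9 rested on 14, 33 and 61 reads in shNT and on 787, 464 and 311 in shSQLE. The exact 95% Poisson intervals, divided by the library sizes, ran from 7.67 to 23.5 for shNT replicate 1, from 24.6 to 50.2 for replicate 2 and from 41.1 to 69.1 for replicate 3. Replicate 1 thus lay below the other shNT libraries by more than counting error, whereas the intervals of replicates 2 and 3 overlapped. Such intervals cover counting error only.

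NDRG1 rested on 2423, 2787 and 2918 reads in shNT and on 13023, 7985 and 6257 in shSQLE, which leaves little counting error. Its interval in shSQLE replicate 1 ran from 11584 to 11990 and lay far above that of replicate 3, from 7659 to 8049. Among the 193 genes with at least 10 pseudo-counts in every library, the within-group SD of log2(pseudo-count + 1) was 0.759 for CA9, the fifth highest, and 0.285 for NDRG1, number 76, with a median of 0.230.

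Both genes were highest in shSQLE replicate 1. That library was the highest of the shSQLE libraries for 38.5% of the 109 tested genes with a higher mean in shSQLE. For the 364 tested genes with a lower mean the share was 42.0%. CA9 was 1.74-fold and NDRG1 1.55-fold higher in shSQLE replicate 1 than in the mean of shSQLE replicates 2 and 3. Of the 81 genes with at least 100 pseudo-counts in every shSQLE library, these were the highest and the second highest ratios, followed by MMP1, an interstitial collagenase, at 1.49. The median of the 81 genes was 1.02 and the lowest value 0.862, so this library was not higher throughout. With a minimum of 50 pseudo-counts, CA9 was number 3 and NDRG1 number 5 of 113 genes, and with a minimum of 300 they were again numbers 1 and 2, of 55 genes. These minima and MMP1 were chosen after the values were seen. In the shNT libraries the genes did not follow the same order, as CA9 was highest in replicate 3 and NDRG1 in replicate 2, although both were lowest in replicate 1. With shSQLE replicate 1 left out, the fold was 11.8 for CA9 and 2.85 for NDRG1, and without shNT replicate 1 it was 11.3 and 3.22. What set shSQLE replicate 1 apart for these genes was not tested.

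**Figure D3:**
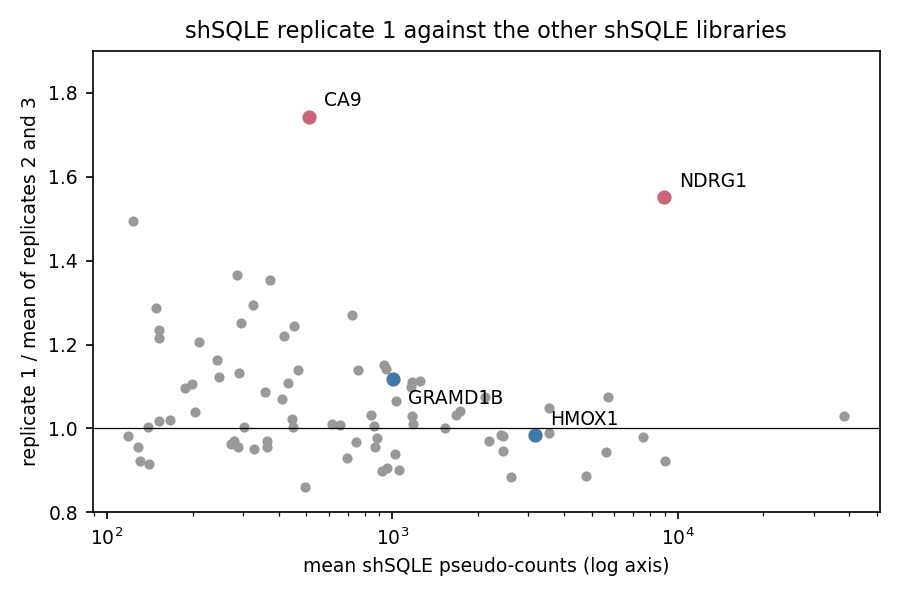
For the 81 genes with at least 100 pseudo-counts in every shSQLE library, the ratio of shSQLE replicate 1 to the mean of shSQLE replicates 2 and 3 is plotted against the mean shSQLE pseudo-counts (log axis). Most genes lie near 1 (median 1.02), whereas CA9 (1.74) and NDRG1 (1.55) are the highest.

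Other genes of the hypoxia response were looked up next. Of 85 hypoxia-inducible genes in a hand-written list, 4 were among the 500 genes, namely CA9, NDRG1, EDN1 and HMOX1. Apart from the members, EDN1 and HMOX1 were thus the only ones of 83 present, and both were lower in shSQLE, where 71.9% of all tested genes were called lower. The median log2 fold change of these 2 genes was -1.75 (-1.67 with EDN1 at the bound its few reads allow), against -1.38 over all 473 genes. With CA9 and NDRG1, which were chosen with their difference known, the median was 0.28. By role, 0 of 24 listed genes of glucose transport and glycolysis, 0 of 10 of HIF feedback, 0 of 6 each of mitochondria and of matrix, and 0 of 4 of lipid storage and uptake were in the table. CA9 was 1 of 4 listed genes of acid-base balance, EDN1 and HMOX1 were 2 of 9 of vessel tone and growth, and NDRG1 was 1 of 22 with other roles. None was found of the oxygen-sensing machinery (0 of 14 genes), which includes HIF1A, EPAS1, ARNT and VHL. Genes outside the table were not analysed here, and their absence does not give their level or show that they were unchanged.

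HMOX1 encodes haem oxygenase, which breaks haem down to biliverdin, iron and carbon monoxide. It had 7738, 6972 and 6662 pseudo-counts in shNT and 3142, 3374 and 3016 in shSQLE. The groups were well apart, and HMOX1 fell to 44.6% of its shNT level. Its log2 fold change was -1.16, with a standard error of 0.0737 and a limma adjusted p of 2.09e-06. EDN1, which encodes the vasoconstrictor peptide endothelin-1, was counted with 7, 23 and 12 reads in shNT against 1, 2 and 2 with shSQLE and was lower as well (adjusted p = 0.0057 by limma). At so few reads no fold is given for EDN1.

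CA9 was the only one of 15 listed carbonic anhydrases and NDRG1 the only one of the 4 NDRG genes in the table. HMOX1 was the only one of 13 listed genes of iron handling. No gene of the table lay within 1 Mb of CA9. KCNQ3, which encodes a potassium channel subunit, lies on chromosome 8 from 132120858 to 132481019. It was the only one within 1 Mb of NDRG1 and moved the other way, with 12, 6 and 3 reads in shNT and 0 in every shSQLE library (adjusted p = 0.00157 by limma).

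The deposited table carries biological process terms for its genes, and 10 genes had a term containing the word hypoxia. This list was taken after the table had been seen. Besides CA9 and NDRG1, which are given without a test, NDNF was called higher and 7 genes lower, namely CASP1, ANKRD1, EDN1, PDGFB, FAS, HMOX1 and PLAU. The median log2 fold change of the 10 genes was -1.19, and -1.33 without CA9 and NDRG1. Of the 8 genes other than the members, 1 was thus higher and 7 were lower, against a background of 20.7% and 71.9%. Genes with such a term were found on both sides and most were lower, as in the whole table. With 8 genes the shares cannot be compared more closely.

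FAS, a death receptor, had a mean of 1725 ± 191 (SD, n = 3) pseudo-counts in shNT and 744 ± 71.6 in shSQLE, and PLAU, the urokinase-type plasminogen activator, had 3267 ± 303 and 1526 ± 11.6. On the log2 scale FAS changed by -1.21 and PLAU by -1.09. PDGFB, a growth factor subunit, was counted with 22, 22 and 32 reads in shNT against 12, 6 and 8 with shSQLE. CASP1, the protease that matures interleukin-1β, was counted with 30, 14 and 18 reads against 2, 0 and 0, and ANKRD1, a muscle ankyrin repeat protein, with 11, 11 and 25 against 2, 0 and 2. NDNF, a secreted neurotrophic factor, rose from 17.0, 17.3 and 12.2 to 45.7, 23.6 and 35.1 pseudo-counts, with a log2 fold change of 1.09 (adjusted p = 0.0201 by limma). The call of NDNF was lost when shNT replicate 3 was left out (log2 fold change 0.93, limma adjusted p 0.0522) and when shSQLE replicate 1 was left out (0.87 and 0.0718). The ratio of shSQLE replicate 1 to the mean of the other shSQLE libraries was 1.56 for NDNF, slightly above that of NDRG1, and 1.43 for PDGFB, on 50, 26 and 28 and on 12, 6 and 8 reads. It was 0.983 for HMOX1 and 0.969 for FAS, and PLAU was level at 1528, 1537 and 1514 pseudo-counts. Among these genes, a raised replicate 1 was thus also seen for NDNF and PDGFB, but on few reads. It was not seen for HMOX1, FAS and PLAU, which had many reads. Counting intervals were not computed for these genes.

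**Figure D4:**
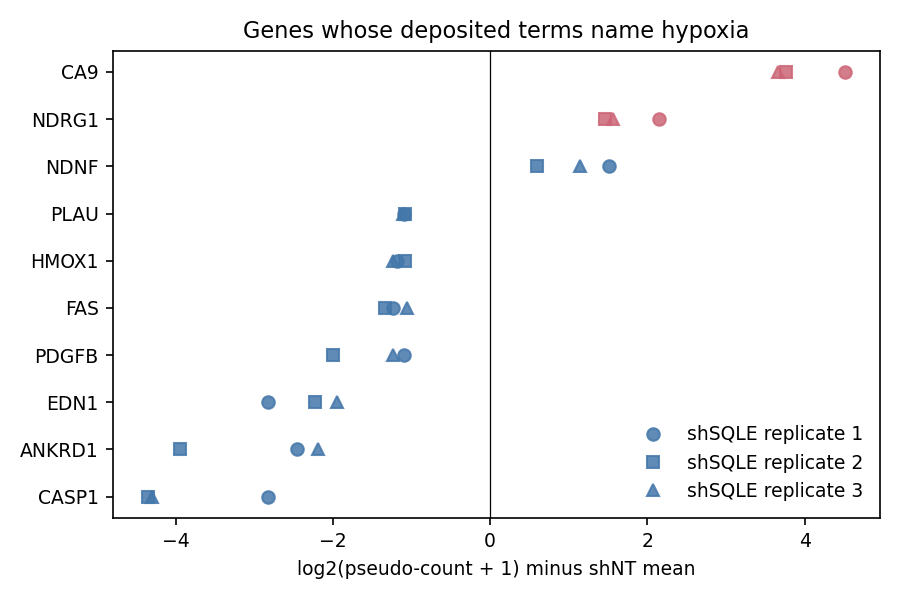
For the 10 genes whose deposited terms name hypoxia, the value of each shSQLE library is shown as log2(pseudo-count + 1) minus the shNT mean, with symbols for the replicate. CA9, NDRG1 (both red) and NDNF lie above 0 in every shSQLE library and the other 7 genes below 0.

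Finally, the genes whose profiles were most like those of CA9 and NDRG1 were ranked. Likeness was the root mean square difference between log2(pseudo-count + 1) profiles over the 6 libraries, each centred on its own mean, among genes with a mean of at least 10 pseudo-counts. Because the authors selected the genes of the table for a difference between the groups, nearness on this measure largely follows the size and direction of that difference. For CA9, the nearest of 299 genes was GRAMD1B, which encodes a transporter of cholesterol at the endoplasmic reticulum, at 0.41. It had 31.1, 59.2 and 59.5 pseudo-counts in shNT and 1082, 952 and 986 in shSQLE, so that its lowest library was shNT replicate 1 as for CA9, but the shSQLE libraries were close together. COL5A3, a collagen chain, was next at 0.82, followed by ZNF521, a zinc finger protein, at 0.92, and YPEL4 at 0.99. COL5A3 rested on 1, 0 and 3 reads in shNT.

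Genes with profiles close to NDRG1 included CACNA1D, which encodes a calcium channel subunit, at 0.25. CACNA1D had 97.2, 80.3 and 82.7 pseudo-counts in shNT and 268, 221 and 239 in shSQLE. It was highest in shSQLE replicate 1 as NDRG1 was, at a much lower level. In shNT the order was not shared, as CACNA1D was highest in replicate 1, where NDRG1 was lowest. MAP1LC3C, an autophagy protein, TCAF2, a partner of TRP channels, and IFIT1, an interferon-induced protein, lay at 0.25 to 0.26. CA9 and NDRG1 were 1.25 apart, so that NDRG1 was number 6 on the list of CA9 and CA9 number 68 on that of NDRG1.

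**Figure D5:**
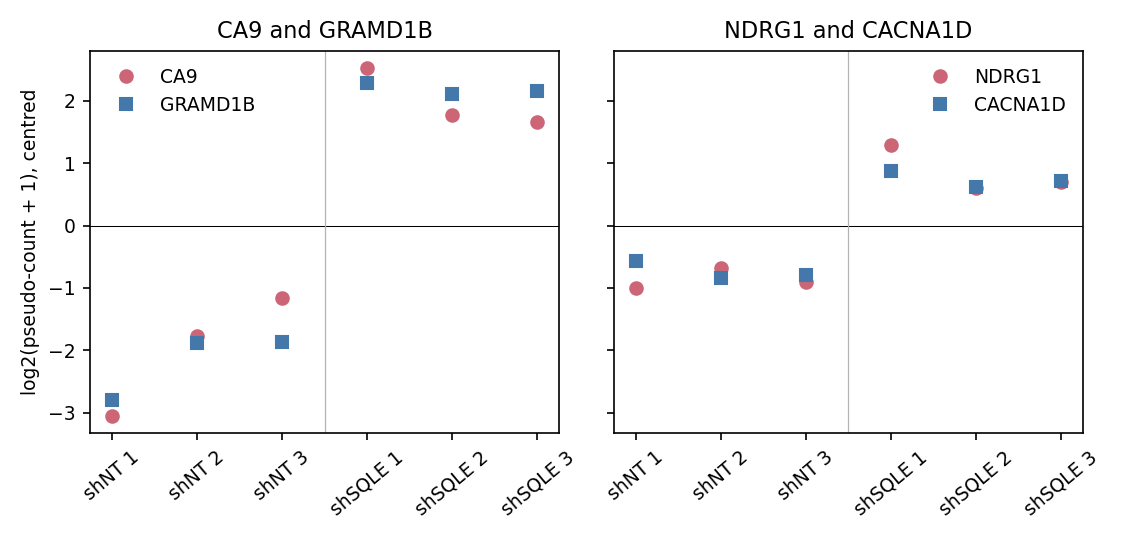
Profiles of log2(pseudo-count + 1) over the 6 libraries, each centred on its own mean, for CA9 with GRAMD1B and for NDRG1 with CACNA1D. The pairs are 0.41 and 0.25 apart, and in both pairs the member, and less so its partner, peaks in shSQLE replicate 1. Within shNT, replicate 1 is the lowest library for NDRG1 and the highest for CACNA1D.

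Of markers of other cells, 0 of 5 fibroblast and 0 of 4 leukocyte genes were in the table. VWF, 1 of 3 endothelial genes, was counted with 8, 13 and 15 reads in shNT against 4, 0 and 0 with shSQLE. Of 8 markers of colon epithelium, KRT20 had 4, 4 and 15 reads and LGALS4 had 2, 1 and 10 reads in shNT, and both had 0 in every shSQLE library. The other markers were not analysed here, so the labelled cell type could not be checked further. The part of these few reads in the values of CA9 and NDRG1 was not tested.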

How the data were processed

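RNA-sequencing of 3 shNT and 3 shSQLE libraries of RKO cells was taken from a single table of 500 genes. The authors gave a signal per gene and library (pseudo-counts, reads adjusted to a common library size), and their own log2 fold changes and p-values, which were not used. The submitters' processing notes list Bowtie 0.12.2 and the build mm8, a mouse build although the cells are human. Counting, annotation and the authors' test are not given in the sources used here.

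Whole reads were recovered by inverting the library size adjustment in each group. Because the values were not counts, limma 3.58.1 in R 4.3.3 was run on log2(pseudo-count + 1) with a mean-variance trend, over the 473 genes that reached 1 in 3 or more libraries, which left out 27 genes. The procedure was tested on simulated data. P-values were adjusted by Benjamini-Hochberg over these genes, which the authors had selected on the same libraries, and measure only the spread between these samples. Alternatives to the pseudocount, the filter, the thresholds, the libraries and the unpaired design were computed.

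CA9, NDRG1 and the gene lists were chosen with earlier results of these data known. Genes named are the members, SQLE, list members in the table, those with a term naming hypoxia, neighbours within 1 Mb and the 5 genes most like each member, of which 1 is not reported here. Positions come from GENCODE 29, promoters from RefSeq. Other steps ran in Python 3.11.15 (SciPy 1.17.1, NumPy 2.4.6, pandas 2.3.3) and figures in Matplotlib 3.10.9.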

Additional observations from a re-analysis of the deposited data

How the results depend on the processing

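The log2 fold changes of CA9 and NDRG1 ranged from 3.45 to 4.40 for CA9 and from 1.51 to 1.85 for NDRG1 over the alternatives that were run. Their direction could not change with a library left out, because the groups did not overlap, and the genes were chosen with their difference known. The lowest and highest values came from leaving out 1 library. With each library left out in turn, 71 to 80 genes were higher and 232 to 295 lower, the hypoxia list gave 2 higher and 2 lower members, and genes with a deposited hypoxia term gave 2 to 3 higher and 7 lower. The counts of higher genes in these lists include CA9 and NDRG1, which were chosen with their difference known, so they say nothing of stability. A minimum of 10 in each of the libraries left 193 genes, of which 47 were higher and 137 lower, with 1 lower member of the hypoxia list and 3 lower genes with a hypoxia term, since genes with few reads were then not tested. Replicate numbers recur in both groups. After subtraction of group means, libraries of equal number correlated across genes at 0.0806, 0.0416 and 0.0919, too weakly to count as pairs, although each library correlated best with its own number. With a replicate block in the fit, the log2 fold changes were again 3.98 and 1.72, and 97 genes were higher and 333 lower. Depth is unknown, and the shNT level of CA9 rests on 14 to 61 reads per library. Counts for the deposited hypoxia terms were added after seeing the data.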
